A study of Mus musculus with 2 samples.

Results

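Zbtb20, Zbtb32, Hhex, Nt5e, Sspn and Pml, 6 genes tied to memory B cells, were followed in marginal zone B cells of the mouse spleen. They were found by gene symbol in the comparison of CD80high with CD80low cells, and all 6 of the 6 were present among 21829 symbols. Zbtb20 and Zbtb32 were chosen by their FPKM difference between these same libraries, so their differences are given as descriptions. The study measured messenger RNA in 2 libraries, 1 of CD80high and 1 of CD80low marginal zone B cells. Both came from wild-type, untreated male C57BL/6 mice, and CD80, a costimulatory surface protein, divided the cells. Neither the age and number of the mice nor the other markers of the sort is stated in the labels. With 1 library per group no difference below has a replicate check, and no test across samples could be made. The values are FPKM, the fragments of a gene scaled to its transcript length and to the mapped fragments of the library.

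Memory B cells are long-lived cells that have met antigen and answer a second encounter quickly. In mice they are divided by surface proteins that include CD80, PD-L2 and CD73, the product of Nt5e, and CD80 itself served here to divide a different population, the marginal zone B cells. Zbtb20 and Zbtb32 belong to the BTB zinc finger family, transcription factors that join a BTB domain, which binds partner proteins, to zinc fingers that bind DNA; BCL6 is the best known relative in B cells. In mice Zbtb20 acts downstream of IRF4 and sustains long-lived antibody production, Zbtb32 restrains the recall response of memory B cells, and the homeodomain factor Hhex works with the corepressor Tle3 in forming memory B cells.

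The start-site sequences of Zbtb20, Zbtb32 and Sspn are shown because these 3 genes had the widest folds between the libraries. Each window runs from 250 bases before to 50 bases after an annotated start in RefSeq on GRCm38.p6, the assembly of mm10, is written 5′ to 3′ on the strand of the gene, and has in capitals each CCAAT box (CCAAT on either strand, a motif bound by NF-Y). The Zbtb20 window lies on the plus strand at chr16:43247034-43247333, inside the locus, and is 1 start among 21 annotated transcripts. The Zbtb32 window lies on the minus strand at chr7:30598860-30599159 and the Sspn window, the more upstream of its pair, on the plus strand at chr6:145931623-145931922.
Zbtb20: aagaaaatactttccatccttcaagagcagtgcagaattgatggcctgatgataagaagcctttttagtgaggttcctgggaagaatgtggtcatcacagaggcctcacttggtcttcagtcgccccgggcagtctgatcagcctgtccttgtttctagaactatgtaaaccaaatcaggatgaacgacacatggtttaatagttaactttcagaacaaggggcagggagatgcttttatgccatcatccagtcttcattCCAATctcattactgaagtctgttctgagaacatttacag
Zbtb32: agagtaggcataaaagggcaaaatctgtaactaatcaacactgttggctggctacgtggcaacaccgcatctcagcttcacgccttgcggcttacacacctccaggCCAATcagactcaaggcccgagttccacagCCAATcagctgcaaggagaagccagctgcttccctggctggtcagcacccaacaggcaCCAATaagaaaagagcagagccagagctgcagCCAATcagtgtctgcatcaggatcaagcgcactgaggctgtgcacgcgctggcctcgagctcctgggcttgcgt
Sspn: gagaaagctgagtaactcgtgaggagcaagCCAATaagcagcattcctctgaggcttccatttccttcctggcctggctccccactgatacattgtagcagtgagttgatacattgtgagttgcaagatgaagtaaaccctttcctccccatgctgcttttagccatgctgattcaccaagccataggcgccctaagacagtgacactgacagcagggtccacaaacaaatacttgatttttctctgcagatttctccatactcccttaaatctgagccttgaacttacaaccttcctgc

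The Zbtb32 window holds 4 CCAAT boxes, beginning 144, 114, 56 and 24 bases before the start, all on the strand printed. Of 32851 such windows in the mouse table, 37.4% hold at least 1 CCAAT and 1.06% hold 4 or more. The Zbtb20 window has 1, which lies after the start, the first Sspn window 1, at 220 bases before the start, and the Hhex window 1 on the other strand. The windows of Nt5e and Pml, the second window of Zbtb32 and the second of Sspn have none. An AP-1-like motif (TGANTCA on either strand, with any base at N) was present in 7.81% of all windows. Among the 6 genes it was found in the first window of Sspn alone, where the letters read TGATTCA. A STAT motif (TTCNNNGAA, which reads alike on both strands), present in 8.30% of all windows, was in the Zbtb20 window and the second Sspn window. These matches describe letters in the windows and do not show binding. No chromatin or factor data bear on them here, and the motifs were chosen after the sequences were seen.

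Of the 6 genes, 5 were listed higher in CD80high and Hhex was listed lower; of 14214 genes with a value above 0 in either library, 52.5% were listed higher in CD80high. Zbtb20 and Zbtb32 passed the size rule used here, a ratio of at least 2-fold on the scale log2((CD80high FPKM + 1)/(CD80low FPKM + 1)) with a mean FPKM of 1 or more. In all, 0.352% of the 9955 genes with that mean passed it in this direction and 0.1% in the other. No gene of the 6 passed it as lower in CD80high. Since the difference chose Zbtb20 and Zbtb32, nothing is read from the count of 2 against that background. Nt5e did not reach the minimum mean, so 5 of the 6 were measured by the rule.

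**Figure D1:**
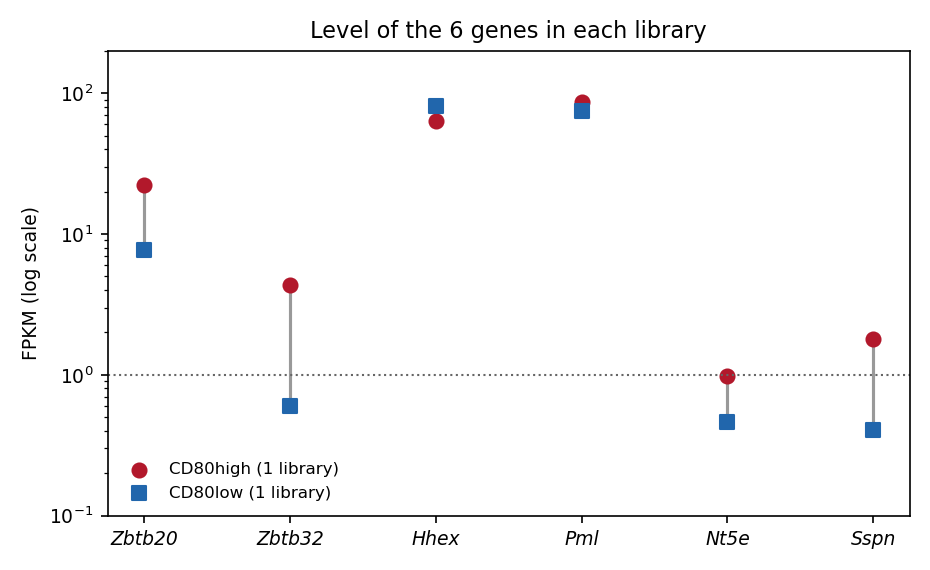
FPKM of the 6 genes on a log axis, with a circle for the CD80high library and a square for the CD80low library, 1 library each and therefore no error bars. Zbtb20, Zbtb32, Nt5e and Sspn stand higher in CD80high, Hhex lower and Pml close, and the dotted line marks 1 FPKM.

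Zbtb20 (ENSMUSG00000022708, plus strand of chromosome 16, 42907645 to 43642602, mm10) stood at 22.1 FPKM in CD80high against 7.65 FPKM in CD80low. These values differed 2.90-fold (approximate 95% counting interval 2.39 to 3.51), and 10 of the 9955 genes had a larger ratio. Zbtb20 was expressed in both populations, and its ratio of 1.42 (log2) stayed above 2-fold at the pseudocounts of 0.1 and 5 as well. Of the 8148 genes with a mean of 5 FPKM or more, 0.16% passed the rule as higher in CD80high. Fragment numbers were approximated from the size of 1 fragment in low genes and a transcript length, and the intervals cover counting error only, not the variation between mice or the assignment of fragments to transcripts. For Zbtb20 the length is poorly defined, since its 12 protein-coding transcripts run from 439 to 26901 nucleotides. The interval was 2.22 to 3.78 with the shortest of them and 2.80 to 2.99 with the longest. Of 9 annotated genes that overlap the locus, 4 lie on the opposite strand and none has a row of its own, and the labels do not say whether counting used the strand.

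Zbtb32 (ENSMUSG00000006310, chromosome 7, 30589681 to 30598869, minus strand) was low in both libraries, with 4.35 FPKM in the CD80high library and 0.605 FPKM in the CD80low library. This is a 7.19-fold difference (counting interval 4.48 to 12.8) from about 129 and 18 fragments. On the scale with the pseudocount the ratio was 1.74, and 3 of the 9955 genes had a larger one. Zbtb32 reached the minimum mean through the CD80high library, as its CD80low value was under 1 FPKM. Of 78 genes that did so, 14.1% passed the size rule as higher in CD80high, and of 1807 genes with a mean of 1 to 5 FPKM 1.22% did. With a pseudocount of 5 the ratio was 0.74, under 2-fold. No annotated gene overlaps Zbtb32. Its neighbour Kmt2b, which encodes a histone methyltransferase and begins on the same strand after a gap of 954 bases downstream of the end of Zbtb32, had 25.4 and 21.7 FPKM.

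Hhex (ENSMUSG00000024986, chromosome 19, 37434810 to 37440731, plus strand) was abundant in both libraries, with 63.3 FPKM in the CD80high library and 80.8 FPKM in the CD80low library. It was 1.28-fold higher in CD80low (counting interval 1.21 to 1.35). The ratio was -0.35 (log2), and 6.16% of the 9955 genes had a ratio as low or lower. Genes whose transcripts were within 25% of the length of Hhex had a median ratio of -0.06, and when both libraries were rescaled to the mean of their summed FPKM the ratio of Hhex was -0.20. The interval excludes equality in counting, but the difference was well inside the 2-fold rule.

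Pml (ENSMUSG00000036986, chromosome 9, 58218076 to 58249786, minus strand), which encodes the scaffold protein of PML nuclear bodies and is induced by interferons, had 86.4 FPKM against 75.2 FPKM, 1.15-fold higher in CD80high (counting interval 1.11 to 1.19), and 13.2% of the 9955 genes had a ratio as high or higher than its 0.20 (log2). Pml was the most abundant of the 6 genes in CD80high, and Hhex in CD80low. Rescaled to the mean total, the ratio of Pml was 0.35.

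Nt5e (ENSMUSG00000032420, chromosome 9, 88327197 to 88372092, plus strand), the gene of the ectonucleotidase CD73 that makes adenosine from AMP outside the cell, was under 1 FPKM in both libraries. Its value was 0.978 FPKM in the CD80high and 0.463 FPKM in the CD80low library. This is 2.11-fold (counting interval 1.44 to 3.10), from about 88 and 43 fragments. With the pseudocount, which weighs heavily at this level, the ratio was 0.43 (log2), under 2-fold.

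Sspn (ENSMUSG00000030255, chromosome 6, 145931641 to 145965223, plus strand) encodes sarcospan, a membrane protein of the dystrophin complex known from muscle. Its value was 1.80 FPKM in the CD80high and 0.405 FPKM in the CD80low library, a 4.45-fold difference (counting interval 3.13 to 6.31) from about 180 and 42 fragments. On the scale with the pseudocount its ratio was 0.996 (log2), just under the 2-fold rule; centring the ratios, rescaling to the mean total or a pseudocount of 0.1 put it above. Like Zbtb32, Sspn reached the minimum mean through the CD80high library. The antisense gene Sspnos lies within the locus on the opposite strand and has no row.

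The authors' deposited table gave Zbtb20 a p-value of 0.00015, against 0.00115 for Sspn and 0.00125 for Zbtb32. The authors' deposited table had p-values of 0.0572 for Nt5e, 0.146 for Hhex and 0.430 for Pml. The q-values in the authors' deposited table were 0.0737 for Zbtb20, 0.270 for Sspn and 0.276 for Zbtb32, and 0.999 for the other members. These values compare 2 libraries, not the populations.

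**Figure D2:**
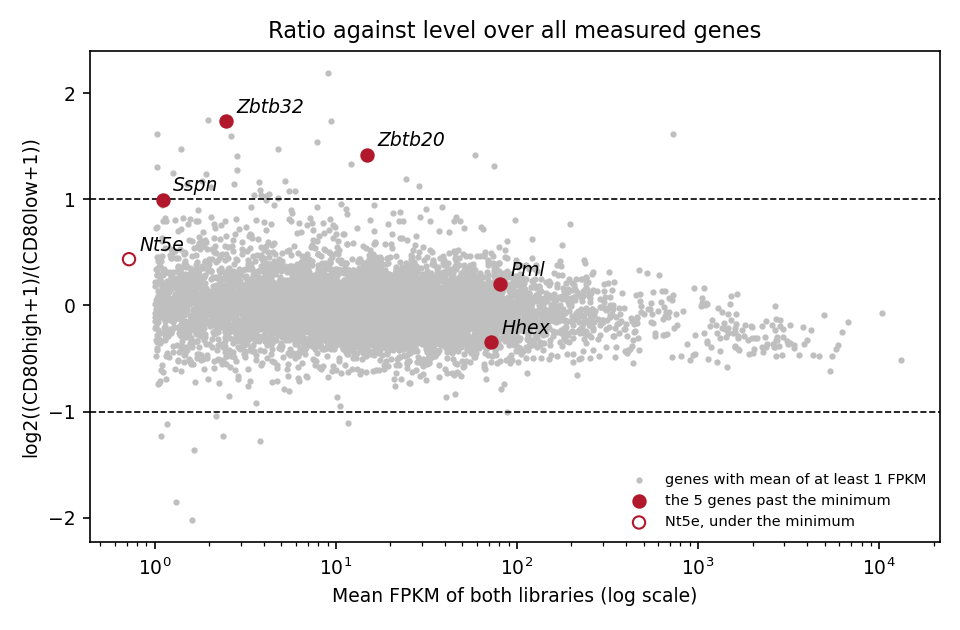
Ratio of CD80high to CD80low (log2, pseudocount 1) against the mean FPKM (log axis) for the 9955 measured genes in grey, with the 6 genes in red and Nt5e, under that mean, as an open circle. Zbtb32 and Zbtb20 lie above the dashed 2-fold line, Sspn on it at 0.996, and Hhex and Pml within the main body of genes.

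The other ZBTB genes differed less between the libraries than Zbtb32 and Zbtb20. This pair was chosen for its difference, so nothing is read from the gap. Of 40 ZBTB genes with a row, 35 were measured, and 2 of these, Zbtb32 and Zbtb20, were past 2-fold. The same 2 were past 1.5-fold in the higher direction, where 1.51% of all measured genes lay, and none was past it in the lower direction, where 0.894% lay. The other 33 had ratios from -0.45 (Zbtb22, 12.2 against 17.04 FPKM) to 0.52 (Zbtb21, 18.4 against 12.5 FPKM), with 23 higher in CD80high, 10 lower and a median of 0.06. Over all 9955 genes 46.4% were higher and the median was -0.02. The most abundant were Zbtb18 (65.9 against 64.2 FPKM), Zbtb7a, a regulator of lineage choice in blood cells (47.2 against 44.7 FPKM), and Zbtb7b, known for directing CD4 T cell development (29.5 against 24.1 FPKM). In level per length, Zbtb20 took rank 7 of 35 in CD80high and rank 26 in CD80low. Zbtb32 took rank 31 of the 35 in CD80high and rank 35 in CD80low. No other gene of these 35 was under 1 FPKM in CD80low, so the minimum mean shapes that last place. Among the ZBTB genes under the minimum, Zbtb46 (0.300 FPKM) and Zbtb16, Zbtb7c and Zbtb8b (each 0) were lower in CD80low than Zbtb32. Zbtb42 (0.620 FPKM) was higher.

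**Figure D3:**
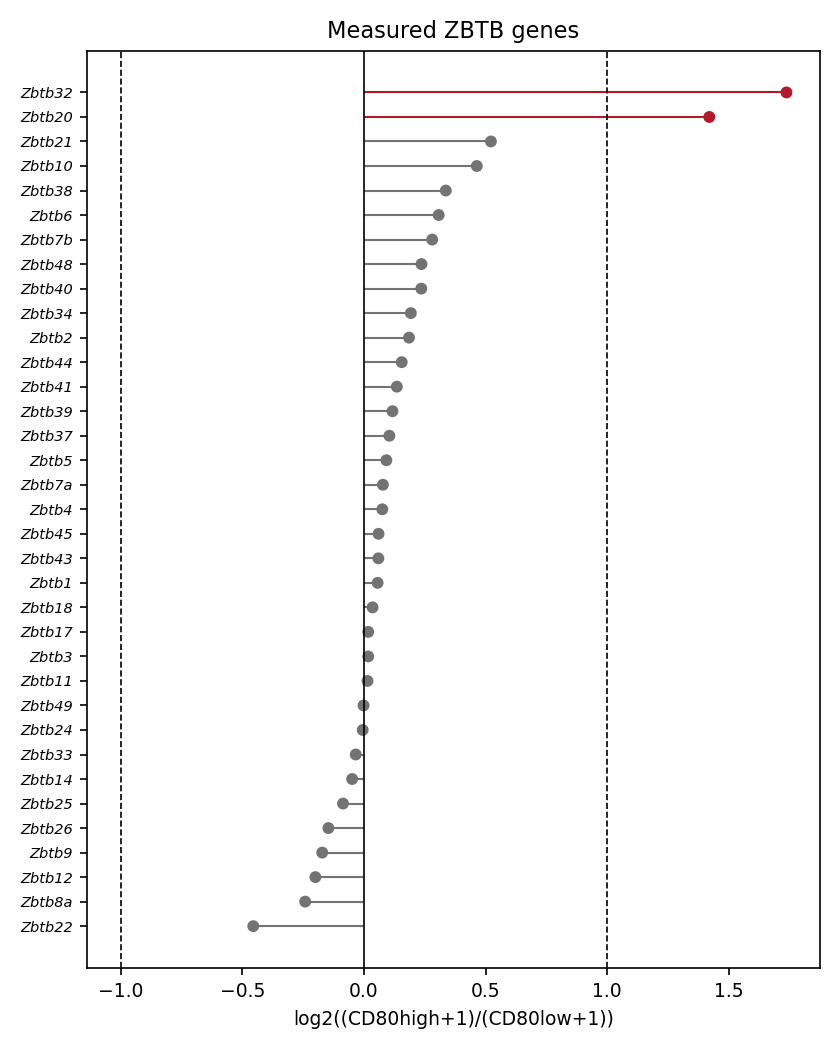
Ratio of CD80high to CD80low (log2, pseudocount 1) for each of the 35 measured ZBTB genes, sorted, with Zbtb32 and Zbtb20 in red and dashed lines at 2-fold. The other 33 genes lie between -0.45 and 0.52.

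Among regulators named in work on memory B cells, no gene apart from Zbtb20 and Zbtb32 passed 2-fold. Over all measured genes 0.352% passed it as higher and 0.1% as lower. Of 24 regulators listed, 21 were measured, 16 higher in CD80high and 5 lower. These include Zbtb20 and Zbtb32, which were chosen for their difference. Without the members, 13 of 17 genes were higher, where 46.4% of all measured genes were. The median ratio was 0.14, and 0.13 over those 17 genes. Rescaling to the mean total adds 0.16 (log2) to every ratio before the pseudocount, and the median with the members was then 0.29. The most abundant were Klf2, a factor of quiescence and migration (692 against 628 FPKM), the B cell identity factor Pax5 (191 against 170 FPKM) and Foxp1 (159 against 149 FPKM). Tle3, the partner of Hhex, had 62.7 against 49.1 FPKM, opposite in direction to Hhex. Bach2, which favours the memory fate over the plasma cell fate, had 10.4 against 13.6 FPKM, and Bcl6, which drives germinal centre B cells, had 11.98 against 15.5 FPKM. Hhex, Bach2 and Bcl6 thus had ratios of nearly the same size, each -0.35 (log2).

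The surface genes of memory B cells went both ways. Of 20 listed, 18 were measured, 8 higher in CD80high and 10 lower, with a median of -0.01 (0.12 after rescaling to the mean total). The share of higher genes among all those measured was 46.4%, so nothing is read from this split. Cd80, the gene of the sort marker, passed 2-fold (4.13 against 1.32 FPKM), which checks the labels. Pdcd1lg2, the gene of PD-L2, which marks memory subsets together with CD80 and CD73, did not go with Cd80 and Nt5e, at 6.67 against 7.93 FPKM. Abundant genes of this list included Tnfrsf13c, the receptor gene for the survival factor BAFF (168 against 195 FPKM), and Tnfrsf13b (134 in both). Cd44 had 33.1 against 23.9 FPKM and Itgb1, an integrin subunit gene, 39.4 against 27.2 FPKM, while the chemokine receptor gene Ccr6 had 57.5 against 77.0 FPKM.

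Prdm1, Irf4 and the class II genes were read because mouse Zbtb20 lies downstream of IRF4, and Zbtb32 acts with Blimp-1, the product of Prdm1, to repress the class II activator gene Ciita. Prdm1 had 5.83 against 2.42 FPKM, with a ratio of 0.996 (log2) just under 2-fold. Like Sspn it passed 2-fold under centring on the median (1.01), rescaling to the mean total (1.12) and a pseudocount of 0.1 (1.23), while raising it to 5 gave 0.54; these values for Prdm1 were added after the data were seen. Irf4 had 198 and 148 FPKM. Ciita had 64.5 and 69.0 FPKM. The class II genes were listed lower in CD80high by small amounts, with H2-Aa at 2259 against 2973 FPKM, H2-Ab1 at 2643 against 3022 FPKM and Cd74, the invariant chain gene, at 10068 against 10585 FPKM, though Cd74, H2-DMb1 and Ciita turned higher in CD80high after rescaling to the mean total. Of 12 measured genes on this list, none passed 2-fold on the scale with a pseudocount of 1. In direction, 4 were higher and 8 lower, where 46.4% of all measured genes were higher. The median was -0.08, which turned to 0.07 after rescaling to the mean total. Among the corepressors and the cullin 3 ligase that BTB proteins bind, none of 14 passed 2-fold in either direction. Over all measured genes 0.352% passed it as higher and 0.1% as lower, so nothing is read from either count of none. Of the 14, 9 were higher in CD80high and 5 lower, with a median of 0.09 (0.23 after rescaling). The most abundant of the 14 were Ncor1 (75.6 against 60.7 FPKM), Klhl6 (64.1 against 73.0 FPKM) and Spop (67.5 against 63.1 FPKM).

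The genes around Hhex showed no member past 2-fold, where 0.352% of all measured genes were past it as higher and 0.1% as lower. Of 10 measured in this list, 3 were higher in CD80high and 7 lower, where 46.4% of all measured genes were higher. The median was -0.02, or 0.12 after rescaling. Lyl1 (74.0 against 87.3 FPKM) and Lmo2 (64.5 against 87.3 FPKM), genes of blood cell transcription factors, were lower in CD80high like Hhex. Bcl2l11, which encodes the death factor BIM, had 39.7 against 29.2 FPKM.

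Among the listed enzyme genes of the route from ATP to adenosine with a value in both libraries, Nt5e was the least abundant. Entpd1, the gene of CD39, which makes the AMP that CD73 uses, had 15.0 against 13.6 FPKM, and Alpl, an alkaline phosphatase that can also form adenosine, had 15.6 against 12.5 FPKM. The adenosine receptor gene Adora2a had 5.53 against 3.68 FPKM. Of 19 measured genes of the pathway none passed 2-fold in either direction, with 13 higher, 6 lower and a median of 0.06. Of all measured genes 46.4% were higher, 0.352% passed 2-fold as higher and 0.1% as lower. The most abundant of the pathway were the nucleoside carrier gene Slc28a2 (143 against 129.5 FPKM), Cd38 (124 against 132 FPKM) and the receptor gene P2ry10 (111 against 107 FPKM).

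Most partners of sarcospan were low or listed at 0. Of 25 genes of the dystrophin complex and its glycosylation, 10 were measured, and none passed 2-fold. Over all measured genes 0.352% passed it as higher and 0.1% as lower. Of the 9 measured genes other than Sspn, 8 were higher in CD80high, where 46.4% of all measured genes were. Their ratios had a median of 0.07. Utrn, the gene of utrophin, a relative of dystrophin, had 15.4 against 11.2 FPKM. Dtnb, the gene of a dystrobrevin, had 8.65 against 8.22 FPKM, and Dag1, the gene of dystroglycan, had 6.09 against 5.52 FPKM. Dmd, the dystrophin gene, was under 1 FPKM in both, at 0.746 and 0.393. Of the sarcoglycan genes, Sgcb was measured (4.68 against 4.70 FPKM), and Sgcd and Sgcz were listed at 0 in both libraries.

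The genes of PML nuclear bodies and the SUMO pathway, on which the bodies depend, were all expressed. All 26 were measured and none passed 2-fold, where 0.352% of all measured genes passed it as higher and 0.1% as lower. In CD80high 15 were higher and 11 lower, where 46.4% of all measured genes were higher. The median was 0.02 (0.17 after rescaling). Abundant genes of this list included Sp100, a body component (137 against 144 FPKM), and Atrx, a chromatin remodeller gene (94.5 against 78.2 FPKM). Sumo2 had the ratio furthest from 0, -0.60 (log2), at 31.6 against 48.4 FPKM.

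**Figure D4:**
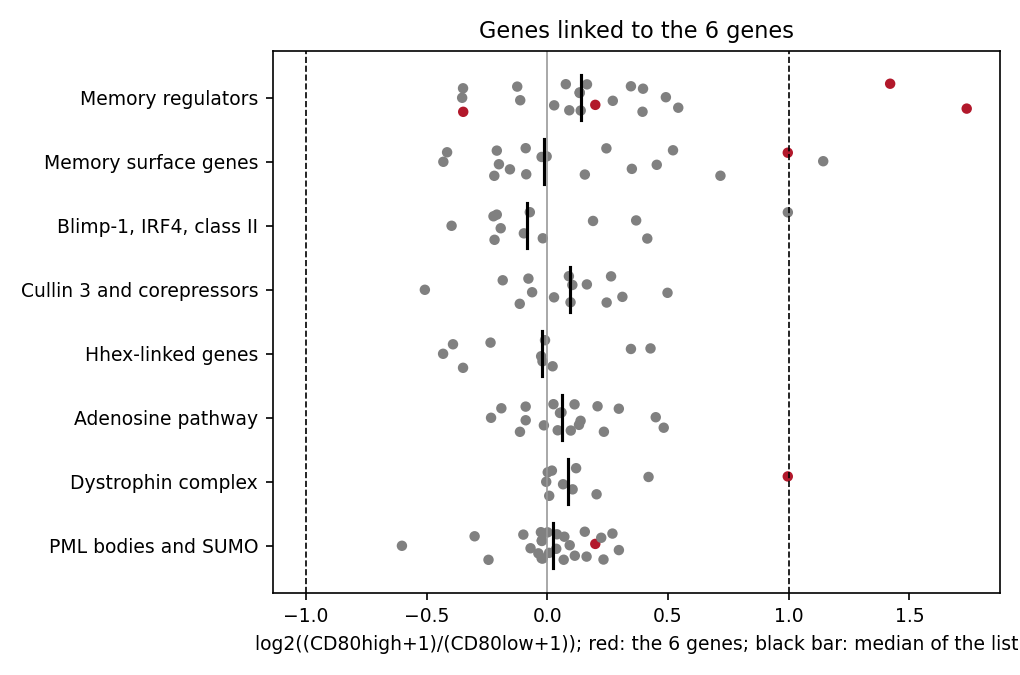
Ratio of CD80high to CD80low (log2, pseudocount 1) for each measured gene of 8 lists linked to the 6 genes, with the members in red, a black bar at each median and dashed lines at 2-fold. Zbtb20 and Zbtb32, which were chosen for their difference, lie apart from the other memory regulators, and the medians lie between -0.08 and 0.14.

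The genes nearest to Zbtb20 over the 2 libraries, by distance of log2(FPKM + 1), were Bhlhe41, a regulator of B-1 cells (17.8 against 6.45 FPKM), Dnase1l3, a secreted nuclease gene (21.7 against 10.8 FPKM), and Lars2, a mitochondrial enzyme gene (19.8 against 10.9 FPKM). Nearest to Zbtb32 were Gzma, a protease gene of cytotoxic lymphocytes (4.45 against 0.807 FPKM), Mt2, a metallothionein gene (3.57 against 0.363 FPKM), and Ctla4, an inhibitory receptor gene (4.61 against 1.11 FPKM). With 2 values per gene this likeness is only a closeness in level and ratio.

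Zbtb20 and Zbtb32 were also on the list of B-1 cell genes, where 5 of 13 measured members passed 2-fold and 12 of 13 were higher in CD80high. Without the pair, which was chosen for its difference, 3 of 11 passed 2-fold and 10 of 11 were higher; over all measured genes 0.352% passed and 46.4% were higher. The 3 were Bhlhe41, Ahnak, which encodes a large scaffold protein (5.86 against 2.36 FPKM), and Ctla4. Bhlhe40, the most abundant gene of the list, had 72.9 against 63.9 FPKM. The median over the 11 genes was 0.81. Of the plasma cell list all 10 measured genes stood higher in CD80high (median 0.41), and Jchain (39.9 against 17.8 FPKM) and Tent5c (34.2 against 14.4 FPKM) passed 2-fold. Over all measured genes the shares were again 46.4% higher and 0.352% past 2-fold. Both lists were written with earlier results of these data known, so their counts are descriptions and no more is read from them. Mzb1 had 396 against 366 FPKM and Edem1 84.1 against 63.6 FPKM. Xbp1 had 58.0 against 53.0 FPKM. The plasma cell markers Sdc1 (0.879 against 0.630 FPKM) and Tnfrsf17 (0.0749 against 0.0728 FPKM) fell under the minimum mean.

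Both libraries had high levels of the B cell genes Cd79a (1284 against 1574 FPKM), Cd79b (987 against 1183 FPKM) and Ms4a1 (733 against 774 FPKM) and of the marginal zone genes Plac8 (1082 against 1029 FPKM) and Cr2 (807 against 837 FPKM). Of 7 follicular genes Fcer2a passed 2-fold as lower in CD80high, by a small margin (log2 ratio -1.004). Of all measured genes 0.1% passed in that direction. In this list 2 were higher and 5 lower, where 46.4% of all measured genes were higher. The median was -0.15, and 0.003 after rescaling to the mean total. Genes that mark other types of cell were mostly low and were higher in the same library as Zbtb20 and Zbtb32; of all genes above 0 in either library, 52.5% were. All 13 T cell markers were higher in CD80high, with a summed level of 28.9 against 18.9 FPKM. Lck held 15.5 and 15.2 FPKM of these sums. Among the defining ones, Cd3e was at 0.819 FPKM in CD80high and 0 in CD80low. Natural killer cell markers were higher in 10 of 12 (42.8 against 17.4 FPKM summed, with Xcl1 at 0 in CD80low), and 5 of their 6 measured members passed 2-fold, namely Ccl5 (15.4 against 2.601 FPKM), Gzma, Nkg7, Il2rb and Xcl1. The last 4 were under 1 FPKM in CD80low and reached the minimum mean only through CD80high, where 14.1% of 78 such genes passed against 0.352% of all measured genes, so the count of 5 is a description of these libraries and no more is read from it. Macrophage markers were higher in all 13 above 0 of 14 (23.6 against 11.9 FPKM, with Fcgr1 at 0 in both). Neutrophil markers were higher in all 7 above 0 of 8 (4.29 against 0.613 FPKM). Dendritic cell markers were higher in 6 of 7 above 0 (5.64 against 3.84 FPKM). Erythroid and platelet markers were higher in all 9 above 0 of 10 (7.53 against 4.40 FPKM). Endothelial and stromal markers were higher in 7 of 9 above 0 (72.9 against 74.1 FPKM, of which Pecam1 held 69.6 and 72.3). The part of these other cell types in the differences of Zbtb20, Zbtb32, Nt5e and Sspn was not tested. More cells with a transcript and more of it per cell cannot be told apart in these bulk libraries.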

How the data were processed

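RNA was sequenced from 1 CD80high and 1 CD80low library. Per the submitters' processing notes, the tools were FastQC 0.11.5, STAR 2.6, Cufflinks 2.2.1, Cuffnorm and Cuffdiff, and the build was mm10. The values deposited by the authors have no unit in the header and were read as FPKM from these tools. Per the file headers, the authors also gave p-values and q-values, which rest on 1 library per group. The deposited log2 ratio, a value of another kind per the file headers, was not used.

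The 21853 rows held 21829 symbols, and 24 repeated symbols were summed. Ratios were log2((CD80high + 1)/(CD80low + 1)), which understates low genes; folds were taken directly between FPKM values. A mean FPKM of 1 or more made a gene measured, and 2-fold or more was the size rule. The files hold no counts: in single-transcript genes longer than 2000 nucleotides the lowest step of FPKM times length was taken as 1 fragment (92 genes in CD80high, 77 in CD80low), or 0.0443 and 0.0432 FPKM kb per fragment. Counting intervals (95%, exact conditional, Clopper-Pearson) used the median protein-coding transcript length of GENCODE M21 and were checked on simulated data.

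The members and lists were chosen with earlier results of these data known. Named were the members; per list, genes past 2-fold and the 3 of highest mean; ZBTB genes past 1.5-fold; and the 3 genes nearest to Zbtb20 and to Zbtb32. For marker lists of other cell types fewer were named. Further genes, and the motifs, were chosen after their values or sequences were seen. Zbtb8os, no ZBTB protein, was left out of the family, against the symbol rule. Tle5 had no match and was not analysed here. Some listed genes count in the list totals but are not reported here by name. The range in which the fragment step was sought was set after the values were seen, and further motifs that were searched are not reported. The scripts ran in Python 3.11.15 with scipy 1.17.1, pandas 2.3.3 and numpy 2.4.6, and plots were drawn with matplotlib 3.10.9.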

Additional observations from a re-analysis of the deposited data

How the results depend on the processing

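No paired analysis was possible because the populations have 1 library apiece, and no library could be left out. Of the 6 genes, 2 were at least 2-fold higher in CD80high; the number was 1 (Zbtb20) with a pseudocount of 5 or a minimum mean of 5 FPKM, and 3, with Sspn, under centring, rescaling to the mean total, a pseudocount of 0.1, a 1.5-fold rule or no pseudocount. The last of these was added after the data were seen. Over all genes the 35 higher became 8 with a pseudocount of 5, 13 at a minimum of 5 FPKM, 69 with a pseudocount of 0.1, 73 with none and 150 at 1.5-fold. The 10 lower became 0 with a pseudocount of 5, 2 at a minimum of 5 FPKM, 25 with a pseudocount of 0.1 and 26 with none. Rescaling to the mean total gave 51 higher and 7 lower, no minimum mean 42 and 12, and centring 37 and 9. Memory regulators past 2-fold were 2, and 1 with a pseudocount of 5 or a minimum of 5 FPKM. Memory surface genes past it were 1, and 0 under those settings, and 2 under centring, rescaling or a pseudocount of 0.1. The pseudocount weighs most on low genes by its construction. Across the settings that keep a pseudocount the ratio ran from 1.10 to 1.56 for Zbtb20, 0.74 to 2.66 for Zbtb32, 0.33 to 1.91 for Sspn, 0.13 to 0.94 for Nt5e, 0.19 to 0.35 for Pml and -0.35 to -0.20 for Hhex, with no change of sign. With no pseudocount the log2 ratios were 1.53 for Zbtb20, 2.85 for Zbtb32, 2.15 for Sspn, 0.20 for Pml and -0.35 for Hhex. Nt5e, which stays under the minimum mean, then had 1.08. Depth limits Zbtb32, Nt5e and Sspn most, each with 18, 43 and 42 approximate fragments in CD80low.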
